A study of Mus musculus with 5 samples.

Results

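The genes described here encode CD137, its ligand and the proteins that sit closest to the receptor inside the cell. They are Tnfrsf9 (CD137), Tnfsf9 (CD137 ligand), the adaptor genes Traf1, Traf2, Traf3, Traf5 and Traf6, the ubiquitin ligase genes Birc2 (cIAP1) and Birc3 (cIAP2), and Map3k14 (the kinase NIK). The 10 genes were chosen by symbol for their place in the pathway, from 16003 genes with an expression value, and all 10 were found. Earlier results of these data were known when they were chosen. The CD137 cells were of RAW264.7, which is a line of mouse monocytes/macrophages, and expressed Renilla luciferase together with mouse Cd137, and the control cells expressed Renilla luciferase without it. The series holds 3 CD137 samples and 2 control samples, of which CD137 replicates 2 and 3 and control replicate 2 were analysed; the other samples were not analysed here. The sources used here do not give how Cd137 was introduced or whether the cells were 1 clone. The study asked how CD137 bears on migration of these cells and their differentiation into osteoclasts.

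CD137 is a receptor of the TNF receptor superfamily that is best known as a co-stimulatory molecule of activated T cells. It has no enzymatic activity of its own and signals by recruiting TRAF adaptors, chiefly TRAF1 and TRAF2, which bring cIAP1 and cIAP2 with them and lead to the NF-kB and MAP kinase pathways. In unstimulated cells TRAF2, TRAF3 and the cIAPs form a complex that marks NIK for degradation, so NIK is known to be controlled mainly as a protein. Engagement of a receptor that takes up this complex lets NIK accumulate, and NIK then drives processing of the NF-kB precursor p100. Traf1 and Birc3 are also known as target genes of NF-kB.

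Of the 10 genes, 6 rose in CD137 cells, 0 fell and 4 did not pass the test. Tnfrsf9 was the introduced gene, and without it 5 of 9 rose. The 6 were Tnfrsf9 itself, the ligand gene Tnfsf9, Traf1, Traf2, Birc2 and Birc3; the 4 were Traf3, Traf5, Traf6 and Map3k14. The test was limma on log2(FPKM + 1), where FPKM is a fragment count normalized to transcript length and sequencing depth, over 10720 genes with at least 1 FPKM in some library, with p-values adjusted over all of them and a threshold of 0.05; only genes past it are said to have risen or fallen. In that comparison 42.6 percent of expressed genes passed, 24.4 percent higher and 18.2 percent lower, so a pass by itself is common in these libraries. The median log2 fold change was 0.30 over the 10 genes, 0.23 over the 9 without Tnfrsf9, and 0.03 over all expressed genes. The filter at 1 FPKM was chosen with earlier results of these data known. When limma was run without it on all 16003 genes, 0 passed, and 5281 genes, among them the same 6 members, had an unadjusted p under 0.05. With 1 control library, only the CD137 pair gave an estimate of spread, and it was applied to the control as well. Separate cultures are not stated for that pair, so the p-values measure a spread between libraries that may be technical.

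All 10 genes were expressed in every library, and for each of them CD137 replicates 2 and 3 were both above or both below the control. Both were set against the same control library, so a shared side is no separate support for a change. For Map3k14 the log2 differences were only -0.05 and -0.01. The share of all expressed genes with a shared side was not computed. Macrophage genes were abundant in all 3 libraries. The summed level of 10 macrophage markers was 2128 and 2182 FPKM in CD137 replicates 2 and 3 and 3247 FPKM in the control, but the markers did not move together. Of the 9 expressed ones 4 (Fcgr1, Itgam, Cd63 and Adgre1) rose, 4 (Lyz2, Csf1r, Cd14 and Cd68) fell and 1 did not pass, with a median log2 fold change of 0.11. Most of the difference in the sum was Lyz2, at 646.25 and 669.34 FPKM in CD137 replicates 2 and 3, against 1692.9 FPKM in the control. Mrc1 was at most 0.05 FPKM in any library. Of 10 T and NK cell markers, which matter because CD137 is known from those cells, 6 (Cd3e, Cd3g, Trac, Ncr1, Klrb1c and Cd2) had no value in any library, and the sum was 5.21, 4.81 and 3.61 FPKM in the same order, most of it Lck. Epithelial markers summed to 6.31 FPKM in CD137 replicate 2, against 1.17 FPKM in CD137 replicate 3 and 0.67 FPKM in the control. From CD137 replicate 3 alone the log2 fold changes of the 6 genes that rose lay between 0.20 (Birc2) and 5.94 (Tnfrsf9). B cell, stromal and dendritic cell markers, 5 each, summed to at most 1.93 FPKM in any library. The part of the macrophage and Lck differences in the members' results was not tested. In bulk RNA, fewer cells of a type and less RNA per cell cannot be told apart.

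Tnfrsf9, the introduced gene (gene ID 21942, chr4:150920155-150946104 in mm10, plus strand), was at 364.3 and 369.95 FPKM in CD137 replicates 2 and 3, against 5.06 FPKM in the control. Its level exceeded that of 98.3 percent of expressed genes in both CD137 libraries and of 20.5 percent in the control. It had the lowest level of the 10 genes in the control and the highest in both CD137 libraries. With a mean of 367 ± 4.00 FPKM (SD, n = 2) in CD137 cells, the ratio to the control was 72.6, and the log2 fold change of 5.92 ± 0.04 (SE, limma adjusted p = 2.97e-06) was not exceeded by any other expressed gene. Reads of the introduced sequence and of the cells' own gene were not separated, so these values check the labels and say nothing of the endogenous gene in CD137 cells. In the authors' deposited table the Poisson test between CD137 replicates 2 and 3 gave Tnfrsf9 p = 0.202.

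The endogenous Tnfrsf9 has 2 annotated transcript starts in the RefSeq promoter table (GRCm38.p6). The windows before them are shown for description only, and their part in the levels above was not tested. The 150 bases before each start are given 5′ to 3′, with matches to the NF-kB consensus in capitals.
Tnfrsf9 upstream start, chr4:150920005-150920154, plus strand: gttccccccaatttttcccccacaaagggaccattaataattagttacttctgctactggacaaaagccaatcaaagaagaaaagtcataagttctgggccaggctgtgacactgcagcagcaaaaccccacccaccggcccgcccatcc
Tnfrsf9 downstream start, chr4:150927849-150927998, plus strand: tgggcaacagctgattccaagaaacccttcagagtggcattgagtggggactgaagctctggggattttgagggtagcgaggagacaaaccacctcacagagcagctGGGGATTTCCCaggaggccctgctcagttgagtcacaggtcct
The downstream window holds 3 overlapping matches, GGGGATTTCC from -43 on the plus strand, GGGATTTCCC from -42 on the plus strand and GGGAAATCCC at the same bases on the minus strand; together they span -43 to -33, counted from the base before the start. The upstream window held none. Both strands of 300-base windows, from 250 bases before to 50 after each start, were searched. The consensus, added after the windows had been seen, was present in 8.46 percent of 32851 such windows of all genes and in 2 of the 11 windows of 9 members. A looser pattern, 3 G, any 5 bases and 2 C, was present in 50.8 percent of all windows and in 7 of the 11. These counts describe letters in a window and show no binding.

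**Figure D1:**
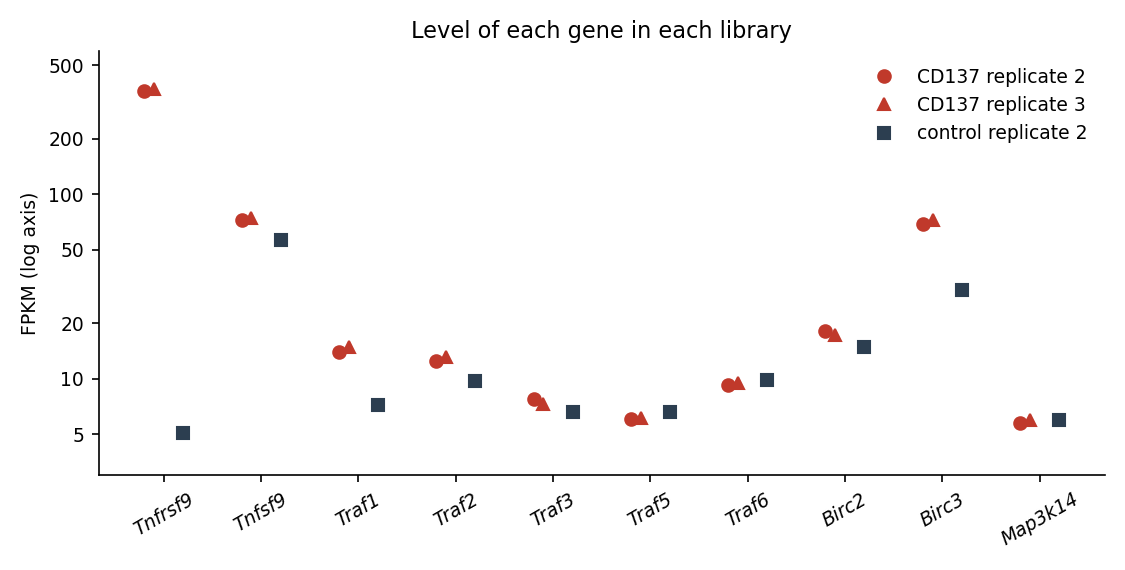
Level of each of the 10 genes in FPKM, on a log axis, in CD137 replicates 2 and 3 (red circle and triangle) and control replicate 2 (dark square). Tnfrsf9 lies at 364.3 and 369.95 FPKM in the CD137 libraries against 5.06 FPKM in the control, and the CD137 points of Traf1 and Birc3 also stand clear of the control.

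Tnfsf9 encodes the membrane-bound ligand of CD137 (gene ID 21950, chr17:57105279-57107757, plus strand). It was at 72.21 and 74.49 FPKM in CD137 replicates 2 and 3, against 56.51 FPKM in the control. Both CD137 values were above the control, which was itself higher than 86.5 percent of expressed genes. The mean of 73.3 ± 1.61 FPKM (SD, n = 2) was 1.3-fold the control value, a log2 fold change of 0.37 ± 0.04 (SE, limma adjusted p = 0.00372). The reads recovered from the authors' p-values were 1521 and 1583 in the CD137 libraries and 1191 in the control, a depth-corrected ratio of 1.32 with a 95 percent interval of 1.24 to 1.41; such intervals here are Clopper-Pearson intervals that cover counting error only. The ratio of receptor to ligand mRNA, as FPKM within a library, was 5.05 and 4.97 in the CD137 libraries, against 0.0895 in the control. The ligand was the more abundant transcript of the pair in the control, and the receptor in both CD137 libraries. Tnfrsf9 was the introduced gene, so this ratio checks the labels and adds nothing on the ligand. Lgals9, which encodes galectin-9, another protein known to bind CD137, was at 11.81 and 12.85 FPKM in the CD137 libraries and 7.11 FPKM in the control (log2 fold change 0.72, limma adjusted p = 0.00289).

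Traf1 was the adaptor gene with the highest fold change. TRAF1 lacks the RING domain of the other adaptors described here and binds in complexes with TRAF2. Traf1 (gene ID 22029, chr2:34941750-34962548, minus strand) was at 13.94 and 14.83 FPKM in CD137 replicates 2 and 3, against 7.16 FPKM in the control. In CD137 cells it averaged 14.4 ± 0.629 FPKM (SD, n = 2), 2.01 times the control value, with a log2 fold change of 0.91 ± 0.07 (SE, limma adjusted p = 0.00151). The size of that change exceeded that of 98 percent of expressed genes, and 158 expressed genes, Traf1 included, had a log2 fold change at least as high. Recovered reads were 546 and 592 in the CD137 libraries and 293 in the control, a ratio of 1.97 with a 95 percent interval of 1.73 to 2.25.

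Traf2 encodes the adaptor that holds the cIAPs to the receptor. Traf2 (gene ID 22030, chr2:25517982-25546940, minus strand) was at 12.41 and 13.17 FPKM in CD137 replicates 2 and 3, against 9.74 FPKM in the control. It rose 1.31-fold, with a log2 fold change of 0.36 ± 0.07 (SE, limma adjusted p = 0.013), a size above that of 76.8 percent of expressed genes. The read ratio of 1.32 had a 95 percent interval of 1.2 to 1.46, which does not overlap that of Traf1. The Traf1 to Traf2 ratio of FPKM within a library was 1.12 and 1.13 in the CD137 libraries, against 0.735 in the control, so Traf1 was the higher of the pair in both CD137 libraries and the lower in the control.

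Traf3, Traf5 and Traf6 did not pass the threshold. TRAF3 is the adaptor that presents NIK to the cIAP complex. Traf3 (gene ID 22031, chr12:111166370-111267155, plus strand) was at 7.75 and 7.25 FPKM in CD137 replicates 2 and 3, against 6.61 FPKM in the control. Both CD137 values were above the control, with a log2 fold change of 0.16 ± 0.08 (SE, limma adjusted p = 0.156). Its recovered reads, 985 and 928 against 857, gave a ratio of 1.13 with a 95 percent counting interval of 1.04 to 1.23. In limma-voom on recovered reads it passed, with a log2 fold change of 0.18 (adjusted p = 0.0426). That fit called 6 of the 9 members with recovered reads, all of them higher, and 47.1 percent of 9662 genes, 26.1 percent higher.

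Traf5, an adaptor with a structure close to that of TRAF3 and able to bind several TNF receptors (gene ID 22033, chr1:191997203-192092599, minus strand), was at 6.03 and 6.12 FPKM in CD137 replicates 2 and 3, against 6.57 FPKM in the control. The log2 fold change was -0.10 ± 0.07 (SE, limma adjusted p = 0.328), and the read ratio of 0.924 had an interval of 0.794 to 1.08. It had the fewest recovered reads of the adaptors, 238 and 243 in the CD137 libraries and 264 in the control. Traf6, the ubiquitin ligase used by RANK, Toll-like and interleukin-1 receptors (gene ID 22034, chr2:101678420-101701668, plus strand), was at 9.22 and 9.48 FPKM in CD137 replicates 2 and 3, against 9.90 FPKM in the control. Its log2 fold change was -0.07 ± 0.06 (SE, limma adjusted p = 0.392), with a read ratio of 0.941 and an interval of 0.874 to 1.01. The counting intervals of Traf5 and Traf6 both end below the interval of Traf2.

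Summed over the 5 adaptors, the level was 49.35 and 50.85 FPKM in the CD137 libraries, against 39.98 FPKM in the control. Traf1 made up 28.2 and 29.2 percent of that sum in the CD137 libraries, against 17.9 percent in the control. In the CD137 libraries the order ran from Traf1 through Traf2, Traf6 and Traf3 down to Traf5, and no neighbours in it had overlapping values. In the control Traf6 and Traf2 came first, at 9.90 and 9.74 FPKM, then Traf1, Traf3 and Traf5; with 1 library no spread can be set beside that order.

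The windows before the starts of Traf1, the adaptor gene that rose most, and of Traf3, which did not pass, are shown for comparison, again 150 bases from RefSeq's table (GRCm38.p6) with NF-kB consensus matches in capitals.
Traf1, chr2:34961773-34961922, minus strand: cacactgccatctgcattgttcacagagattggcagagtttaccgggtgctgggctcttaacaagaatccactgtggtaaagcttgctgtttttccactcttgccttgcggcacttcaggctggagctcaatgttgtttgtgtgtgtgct
Traf3, chr12:111166220-111166369, plus strand: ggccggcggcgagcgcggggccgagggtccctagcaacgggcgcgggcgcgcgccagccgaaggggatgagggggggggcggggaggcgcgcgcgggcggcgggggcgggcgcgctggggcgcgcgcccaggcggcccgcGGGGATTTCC
The Traf1 window, which lies before 1 of its annotated starts, held no match to either pattern. The Traf3 window held GGGGATTTCC from -10 to -1.

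**Figure D2:**
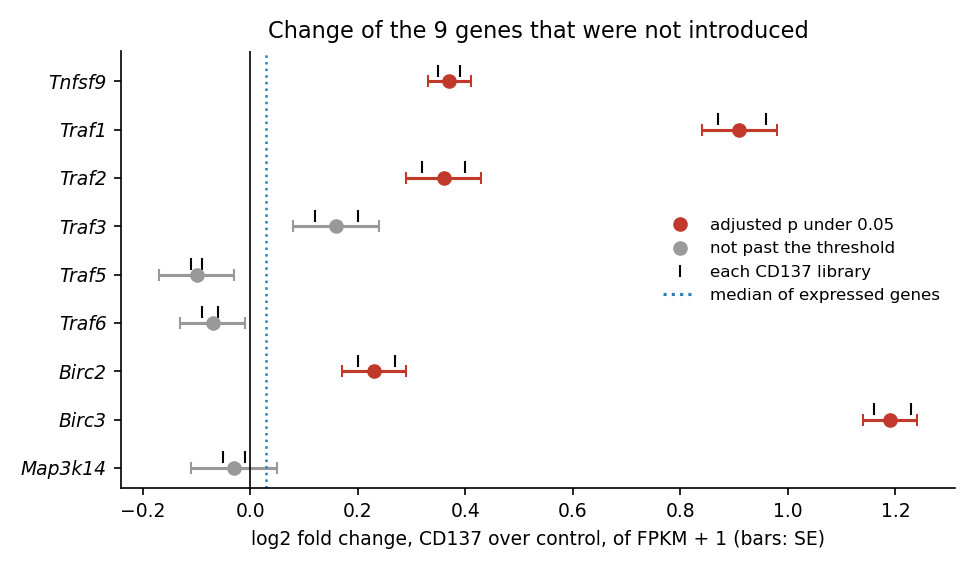
Log2 fold change of FPKM + 1, CD137 over control, of the 9 genes other than Tnfrsf9; points are limma estimates with SE bars, ticks above them are CD137 replicates 2 and 3 taken alone, and the dotted line is the median of expressed genes at 0.03. Birc3 at 1.19 and Traf1 at 0.91 stand apart from the other 7 genes, which lie between -0.10 and 0.37.

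Birc3 changed more than its neighbour and paralogue Birc2. Both encode RING ubiquitin ligases with baculoviral IAP repeats that bind TRAF2, and the genes lie side by side on chromosome 9, 11568 bases apart on the minus strand. Birc3 (gene ID 11796, chr9:7848699-7873210) was at 68.93 and 72.35 FPKM in CD137 replicates 2 and 3, against 30.36 FPKM in the control. It rose 2.33-fold, with a log2 fold change of 1.19 ± 0.05 (SE, limma adjusted p = 0.000755), and 61 expressed genes, Birc3 included, had a log2 fold change at least as high. Its 3197 and 3361 reads in the CD137 libraries and 1426 in the control gave a ratio of 2.33 with a 95 percent interval of 2.2 to 2.47. Birc3 was below Tnfsf9 within each CD137 library, though the ranges of these genes over the CD137 libraries overlapped.

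Birc2 (gene ID 11797, chr9:7818226-7837131) was at 18.13 and 17.23 FPKM in CD137 replicates 2 and 3, against 14.90 FPKM in the control. It rose 1.19-fold, with a log2 fold change of 0.23 ± 0.06 (SE, limma adjusted p = 0.0335), the smallest change of the 6 genes that passed. The call was lost when the mean-variance trend was left out of the fit (adjusted p = 0.0589). The read ratio of 1.19 had an interval of 1.1 to 1.29, which does not overlap that of Birc3. The Birc3 to Birc2 ratio of FPKM was 3.8 and 4.2 in the CD137 libraries, against 2.04 in the control. Birc3 made up 79.2 and 80.8 percent of the summed cIAP level in the CD137 libraries, against 67.1 percent in the control, and the sum was 87.06 and 89.58 FPKM against 45.26 FPKM.

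The 150 bases before the annotated start of Birc3 are shown because it had the highest fold change after Tnfrsf9; capitals mark its match to the looser pattern.
Birc3, chr9:7873171-7873320, minus strand: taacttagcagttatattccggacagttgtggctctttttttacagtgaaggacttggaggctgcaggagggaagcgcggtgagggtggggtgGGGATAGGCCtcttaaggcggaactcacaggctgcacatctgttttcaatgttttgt
The match, GGGATAGGCC from -57 on the plus strand of the window, does not meet the NF-kB consensus. Neither of 2 windows of Birc2 held a match to either pattern.

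Map3k14, which encodes NIK, the kinase that the TRAF and cIAP complex holds in check, had the smallest change of the 10 genes. Map3k14 (gene ID 53859, chr11:103219764-103267401, minus strand) was at 5.73 and 5.95 FPKM in CD137 replicates 2 and 3, against 5.98 FPKM in the control. The log2 fold change was -0.03 ± 0.08 (SE, limma adjusted p = 0.778). Reads of 423 and 442 in the CD137 libraries and 449 in the control gave a ratio of 0.977 with an interval of 0.871 to 1.1, which does not exclude small differences either way. The level of NIK protein was not measured.

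**Figure D3:**
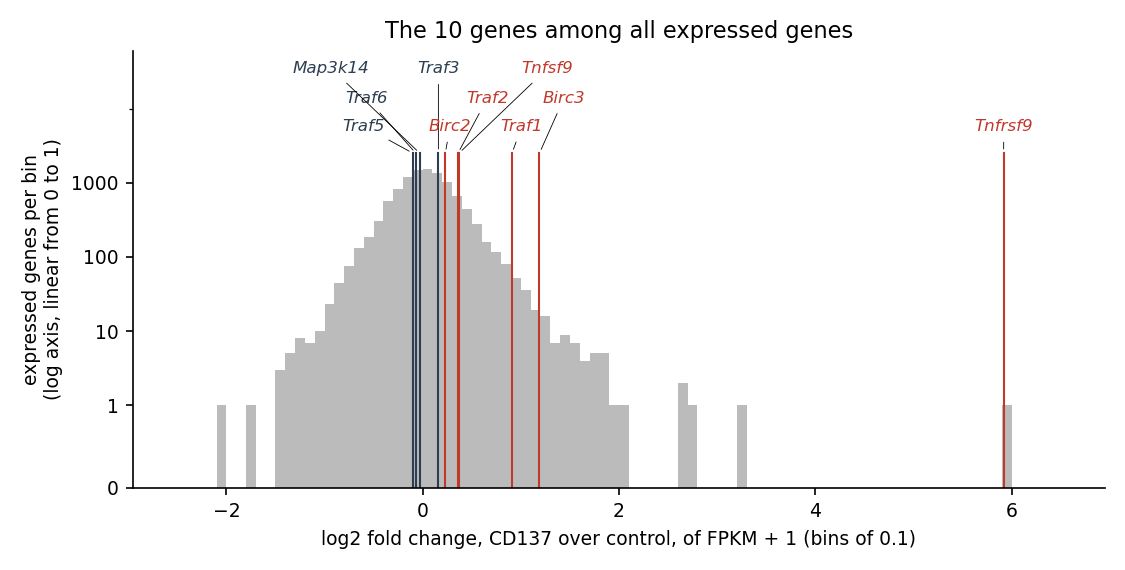
Number of expressed genes per 0.1-wide bin of log2 fold change, CD137 over control, of FPKM + 1 (log count axis, linear from 0 to 1), with the 10 genes marked; red marks the 6 that rose and dark blue the 4 that did not pass. Tnfrsf9 at 5.92 lies beyond every other gene, Birc3 at 1.19 and Traf1 at 0.91 lie in the upper tail, and the others lie in the bulk.

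The CD137 libraries gave near-equal values for these genes. The largest difference between them on the log2(FPKM + 1) scale was 0.08, against an SD of 0.13 over expressed genes. For each of the 9 genes with recovered reads the 95 percent interval of the ratio of CD137 replicate 3 to replicate 2 included 1; that of Birc3, the most deeply covered, ran from 0.996 to 1.1. Over 9416 genes with at least 100 reads the chi-square between these libraries averaged 1.69 per gene, with a median of 0.662. The mean is above the value of 1 that counting error gives, but it cannot tell separate cultures from technical differences. The libraries were treated as separate samples because their titles number them as replicates.

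**Figure D4:**
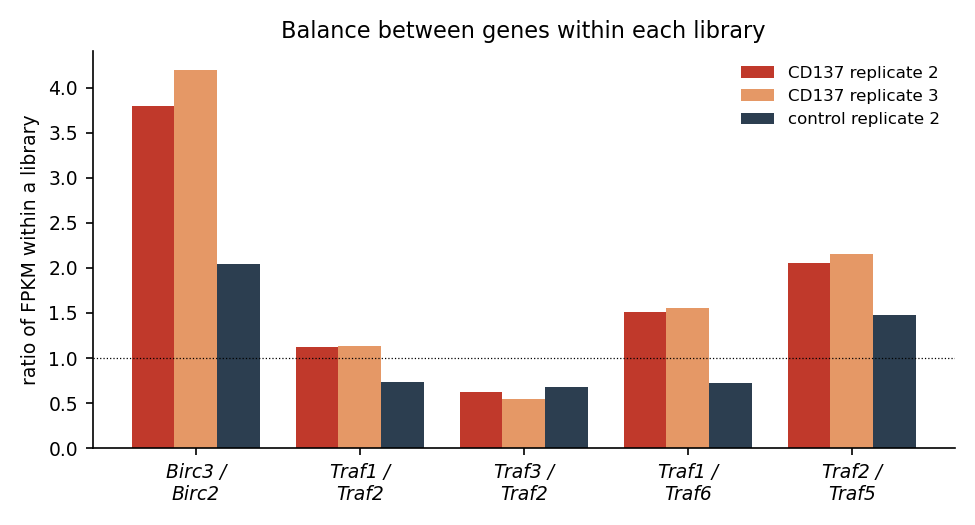
Ratio of FPKM between pairs of the genes within each library, for CD137 replicates 2 and 3 (red and orange bars) and control replicate 2 (dark bars), on an axis from 0; the dotted line marks equal levels. Birc3 to Birc2 is 3.8 and 4.2 in the CD137 libraries against 2.04 in the control, and Traf1 to Traf2 and Traf1 to Traf6 lie above 1 in the CD137 libraries and below 1 in the control.

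Further down the pathway, genes of the NF-kB family included some with changes near those of Traf1 and Birc3. Of 11 NF-kB subunit and inhibitor genes 6 rose, 1 fell and 4 did not pass, with a median log2 fold change of 0.18, against 42.6 percent called and a median of 0.03 over expressed genes. Nfkb2, which encodes the p100 precursor that NIK acts on, was at 56.31 and 56.66 FPKM in CD137 replicates 2 and 3, against 22.85 FPKM in the control. Relb, its partner, was at 26.57 and 26.22 FPKM in the CD137 libraries, against 11.73 FPKM in the control. Nfkbie and Nfkbib encode inhibitors that hold NF-kB in the cytoplasm. Nfkbie was at 11.59 and 11.79 FPKM in the CD137 libraries, against 5.34 FPKM in the control, and Nfkbib rose with a log2 fold change of 0.80. The log2 fold changes of Nfkb2 and Relb were 1.27 and 1.11, beside 1.19 for Birc3 and 0.91 for Traf1. Other genes of the list did not share this change. Rel fell, with a log2 fold change of -0.45 (limma adjusted p = 0.0303), and Rela and Nfkbia, at 0.02 and -0.04, did not pass.

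Of 21 genes for the IKK and TAK1 kinases and the ubiquitin ligases around them, 5 rose, 3 fell and 13 did not pass, with a median log2 fold change of -0.01; the share called was 38.1 percent, against 42.6 percent of expressed genes. Tank, which encodes a TRAF-binding scaffold protein, was at 45.71 and 45.76 FPKM in the CD137 libraries, against 30.94 FPKM in the control. Tab2, an adaptor of the kinase TAK1, rose with a log2 fold change of 0.32. Ripk1, the kinase of TNF receptor complexes that the cIAPs ubiquitinate, was at 9.30 and 9.64 FPKM in the CD137 libraries, against 13.90 FPKM in the control, and Traf7 fell by 0.39 on the log2 scale. The IKK genes Chuk, Ikbkb and Ikbkg had log2 fold changes of -0.02, 0.01 and 0.10 and did not pass.

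Of 14 measured deubiquitinases and other brakes on TRAF signalling 5 rose, 3 fell and 6 did not pass, with a median log2 fold change of 0.13; the share called was 57.1 percent, against 42.6 percent of expressed genes. Without the mean-variance trend 5 were called in place of 8. Trafd1 and Cyld, the second a deubiquitinase of TRAF2, rose with log2 fold changes of 0.33 and 0.26. Tnip3 was at 6.11 and 5.28 FPKM in the CD137 libraries, against 10.49 FPKM in the control. Tnfaip3 fell, with a log2 fold change of -0.32 (limma adjusted p = 0.033). Traip, a ubiquitin ligase named for its binding to TRAFs and known for a role at replication forks, was at 9.03 and 9.22 FPKM in the CD137 libraries, against 13.89 FPKM in the control.

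Of 18 genes of the MAP kinase arm 5 rose, 2 fell and 11 did not pass, with a median log2 fold change of 0.02; the share called was 38.9 percent, against 42.6 percent of expressed genes. Map3k5, which encodes ASK1, rose with a log2 fold change of 0.37, Map3k3 with one of 0.27 and Map2k2 with one of 0.31. Map3k1, which encodes MEKK1, was at 14.09 and 14.01 FPKM in the CD137 libraries, against 21.55 FPKM in the control.

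Among receptors and adaptors that also draw on TRAFs, 16 of 22 were expressed, of which 7 rose, 2 fell and 7 did not pass, with a median log2 fold change of 0.24; the share called was 56.2 percent, against 42.6 percent of expressed genes. Cd40, whose receptor uses TRAF2, TRAF3 and TRAF6, was at 20.03 and 19.44 FPKM in the CD137 libraries, against 4.15 FPKM in the control. Tnfrsf12a (the TWEAK receptor) and Tnfrsf13b (TACI) had log2 fold changes of 0.58 and 0.51, and Myd88, the adaptor of Toll-like receptors, 0.38. Tnfrsf11a, which encodes RANK, the TRAF6-using receptor of osteoclast precursors, was at 18.15 and 17.75 FPKM in the CD137 libraries and 20.27 FPKM in the control and did not pass (limma adjusted p = 0.0602). Tnfrsf11a is named here because of the study's question and was chosen after its values were seen. The IKK genes, Rel, Rela, Nfkbia, Tnfaip3 and Per3 were also chosen after their values were seen.

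**Figure D5:**
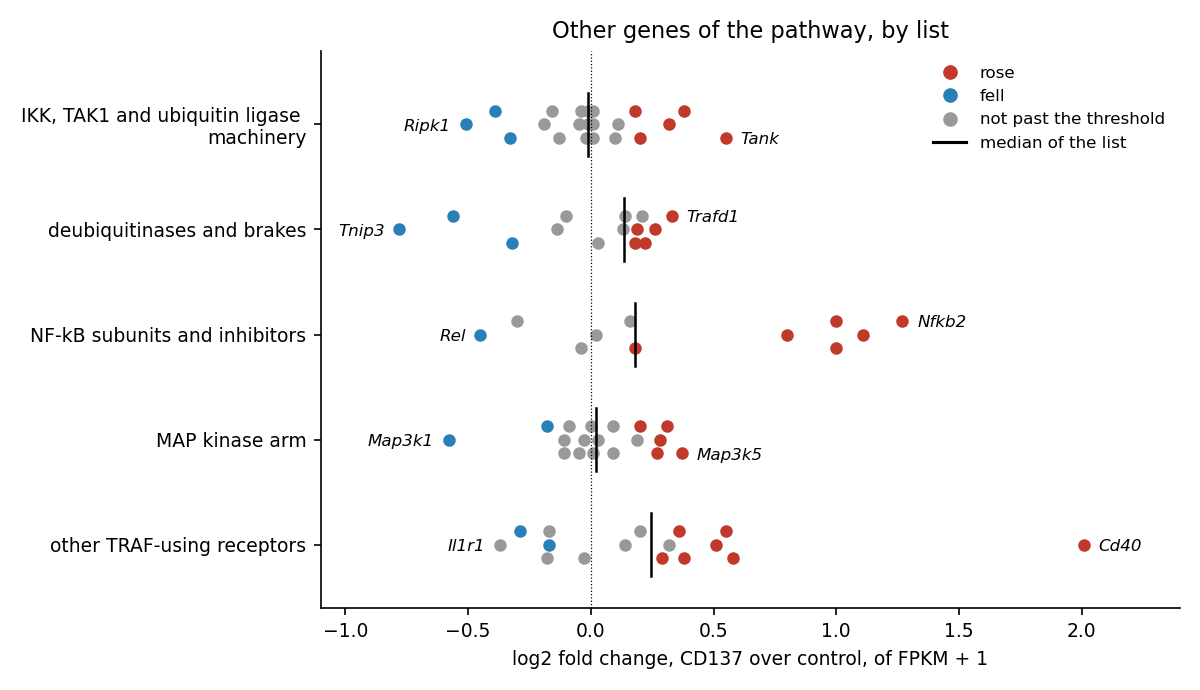
Log2 fold change of FPKM + 1, CD137 over control, of each expressed gene of 5 pathway lists; red points rose, blue fell and grey did not pass, black bars are list medians, and the lowest and highest gene of each list is named. The list medians lie between -0.01 and 0.24, and Cd40, Nfkb2 and Relb lie farthest to the right.

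Genes around Tnfrsf9 on chromosome 4 did not share a direction. Within 1 Mb of it 16 other genes had a value and 10 were expressed, of which 3 rose, 4 fell and 3 did not pass, against 42.6 percent called among expressed genes. Gpr157, Car6 and Camta1 rose, with log2 fold changes of 0.61, 2.64 and 0.41, and Eno1, Rere, Park7 and Dnajc11 fell by 0.29, 0.33, 0.24 and 0.19 on the log2 scale. Camta1 did not pass in limma-voom on recovered reads (adjusted p = 0.0518), and Park7 and Dnajc11 did not pass without the mean-variance trend (adjusted p = 0.051 and 0.0696). The nearest measured genes on either side of Tnfrsf9 were Park7, at 153.88 and 148.03 FPKM in the CD137 libraries and 178.05 FPKM in the control, and Per3, at no more than 0.67 FPKM in any library.

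No expressed gene came near Tnfrsf9 in pattern. Likeness was measured as the Euclidean distance between the log2 differences of CD137 replicates 2 and 3 from the control, over these 3 libraries. The nearest genes to Tnfrsf9 were Gstt1, Il23a, Bcl2a1a and Car6, at distances of 3.78, 4.54, 4.58 and 4.65; Bcl2a1a has near-identical copies, so its reads are uncertain. Nearest to Traf1 were Lilrb4a, Il2rg, Gsto1 and St3gal3, at distances of 0.0077 to 0.0281, and nearest to Birc3 were Grina, Dbp, Slc43a3 and Slc9a9, at distances of 0.028 to 0.0406. With 1 control library many genes can share a pair of differences, and nothing further is drawn from these names.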

How the data were processed

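RNA selected with oligo-dT was profiled, per the labels' protocols; sample titles gave each library's group and replicate number. The authors deposited FPKM per gene and library, rounded to 0.01, with log2 ratios, Poisson p-values and adjusted values between pairs of libraries, per the file headers. The deposited adjusted values exceed 1 for some genes and were treated as a score and not used. The submitters' processing notes list mm10 as the build and HISAT2, Bowtie2 and RSEM as tools, and give no role or version for them; strandedness is not given in the sources used here. Of 21990 listed genes 16003 had a value.

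The fit was limma 3.58.1 in R 4.3.3 on log2(FPKM + 1) with a mean-variance trend and Benjamini-Hochberg adjustment, over genes at 1 FPKM or more in some library, with 1 residual degree of freedom; fold changes on this scale understate those of low genes. Whole reads (or fragments) were solved from the deposited FPKM and p-values, which follow 2 times the smaller tail of a conditional Poisson distribution, with unique solutions for 14487 genes, 90.5 percent, and for 9 of the 10 members; Tnfrsf9 could not be solved. Estimated depth was 17700000 reads in CD137 replicate 2, 17800000 in CD137 replicate 3 and 18000000 in the control. Read recovery and the fits with a test were also run on simulated data. There the fit without a filter missed even the largest changes set, and the main fit missed the smallest. In the same data limma-voom made some false calls. Far fewer genes were set to change there than were called in these libraries, so these outcomes may not carry over to them. The members, the lists and the filter at 1 FPKM were chosen with earlier results of these data known. Genes were named by rule: the 10 members, the 4 smallest p-values of each list, called genes within 1 Mb of Tnfrsf9, and the 4 genes most like Tnfrsf9, Traf1 and Birc3. Alternatives were no filter, a pseudocount of 0.1, rescaled libraries, no trend, limma-voom on recovered reads, and each CD137 library left out. The NF-kB consensus search was added after the sequences had been seen. Protein sequences were not used here.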

Additional observations from a re-analysis of the deposited data

How the results depend on the processing

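The 4563 calls over expressed genes, the 6 calls among the members, and the calls of each of the 5 pathway lists and of the genes near Tnfrsf9 all became 0 in the limma fit without a filter on low values. There the log2 fold changes of Tnfrsf9, Tnfsf9, Traf1, Traf2, Birc2 and Birc3 were as before, at 5.92, 0.37, 0.91, 0.36, 0.23 and 1.19, with adjusted p-values from 0.0802 to 0.144. The 39 other genes named by rule lost their calls too. Without the mean-variance trend Birc2 (0.23, adjusted p = 0.0589) was lost and the list of deubiquitinases and brakes had 5 calls; with limma-voom on recovered reads Traf3 passed (0.18, adjusted p = 0.0426). The cause was not tested. No other member changed side with a pseudocount of 0.1, with rescaled libraries, without the trend or, for the 9 genes solved, with limma-voom, and no member changed direction in any fit. With 1 CD137 library left out, 1 library stands against 1, which gives values and no test; the ranges were 5.91 to 5.94 for Tnfrsf9, 0.35 to 0.39 for Tnfsf9, 0.87 to 0.96 for Traf1, 0.32 to 0.40 for Traf2, 0.12 to 0.20 for Traf3, -0.11 to -0.09 for Traf5, -0.09 to -0.06 for Traf6, 0.20 to 0.27 for Birc2, 1.16 to 1.23 for Birc3 and -0.05 to -0.01 for Map3k14. No paired analysis was possible because the groups share only replicate number 2 among the libraries analysed.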
